A study of Mus musculus with 2 samples.

Results

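Methylation was described at 8 genes that handle arsenic or answer oxidative and metal stress, As3mt, Nfe2l2, Keap1, Hmox1, Nqo1, Gclc, Mt1 and Mt2, in the hippocampus of C57BL/6 mice. The genes were chosen for their function, with earlier results of these data known. Their cytosines were those with at least 10 reads in both libraries inside 7 windows of the mm9 genome, each holding a gene with its flanks, and Mt1 and Mt2 shared a window. In what follows, control DNA and ATO DNA stand for the DNA of the 2 libraries. The windows gave 1231 of the 2312276 cytosines analysed in the whole data set. The study had 2 libraries, each of bisulfite-treated hippocampal DNA enriched for targeted regions. The control library came from mice with no treatment. The library called ATO came from offspring of mice that drank water with 5000 ppb arsenic trioxide from before mating through lactation, and the offspring went on drinking it after weaning. The age, the sex and the number of animals behind a library are not given in the labels.

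As3mt encodes the methyltransferase that adds methyl groups from S-adenosylmethionine to arsenic, the same donor that DNA methyltransferases use. Nfe2l2 encodes the transcription factor NRF2, which Keap1 holds for degradation until oxidants or arsenite modify Keap1. Free NRF2 binds antioxidant response elements near genes such as Hmox1 (heme breakdown), Nqo1 (quinone reduction) and Gclc (the catalytic subunit of the first enzyme of glutathione synthesis). Mt1 and Mt2 encode metallothioneins, small cysteine-rich proteins that bind metal ions and are switched on through metal response elements by the factor MTF1. Promoters rich in CpG, the sequence where most mammalian methylation sits, are usually unmethylated, and the bodies of genes usually methylated.

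The 250 bases upstream of the start are shown for the genes where the results turn on the region around the start, As3mt, Nfe2l2, Mt1 and Mt2, from RefSeq on build GRCm38.p6. They lie at chr19:46707208-46707457 on the plus strand for As3mt, chr2:75704664-75704913 on the minus strand for Nfe2l2, and chr8:94178839-94179088 and chr8:94172368-94172617 on the plus strand for Mt1 and Mt2. This build differs from that of the methylation tables, and these coordinates serve the sequences alone. Capitals mark the CpGs, and a capital C at the end of a sequence belongs to a CpG that crosses the start.
As3mt: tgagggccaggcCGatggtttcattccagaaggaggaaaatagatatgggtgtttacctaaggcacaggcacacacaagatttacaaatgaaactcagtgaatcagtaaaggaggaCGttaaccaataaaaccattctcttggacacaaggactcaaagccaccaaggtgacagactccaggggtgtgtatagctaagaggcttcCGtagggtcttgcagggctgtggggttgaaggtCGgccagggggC
Nfe2l2: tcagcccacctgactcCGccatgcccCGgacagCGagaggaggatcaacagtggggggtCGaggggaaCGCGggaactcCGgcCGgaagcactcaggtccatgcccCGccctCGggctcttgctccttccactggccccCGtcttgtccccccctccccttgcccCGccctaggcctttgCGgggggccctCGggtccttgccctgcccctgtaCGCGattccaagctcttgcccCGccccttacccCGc
Mt1: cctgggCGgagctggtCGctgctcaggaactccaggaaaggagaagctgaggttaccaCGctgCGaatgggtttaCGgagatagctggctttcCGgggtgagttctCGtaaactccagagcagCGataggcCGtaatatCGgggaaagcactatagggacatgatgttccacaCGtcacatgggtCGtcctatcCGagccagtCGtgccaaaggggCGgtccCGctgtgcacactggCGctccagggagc
Mt2: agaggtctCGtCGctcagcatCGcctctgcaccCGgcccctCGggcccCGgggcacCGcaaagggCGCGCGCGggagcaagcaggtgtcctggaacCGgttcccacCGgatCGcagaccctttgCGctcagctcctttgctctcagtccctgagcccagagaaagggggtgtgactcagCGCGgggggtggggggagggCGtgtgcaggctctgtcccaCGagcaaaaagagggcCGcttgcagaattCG
The As3mt sequence held 5 CpGs, against 18 in Nfe2l2, 17 in Mt1 and 21 in Mt2. RefSeq promoter windows run from 250 bases before to 50 after the start. In these 300 bases the antioxidant response element, searched as TGACNNNGC on both strands, matched at TGACTCCGC in Nfe2l2 (bases -240 to -232 from the start) and at TGACTCAGC in Mt2 (-79 to -71). The metal response element, searched as TGCACNC or TGCGCNC on both strands, had 3 matches in Mt1 and 4 in Mt2. Neither motif was found in the windows of As3mt, Keap1 and Nqo1. Of all 32851 RefSeq windows, 12.4% held the first motif and 25.7% the second, so a match describes the letters and marks no binding site. No promoter entry was matched for Hmox1 and Gclc.

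The control library held 135987272 calls at 5772100 cytosines and the ATO library 147924810 calls at 5973197. The methylation level of a cytosine is the percent of its reads that kept a C after bisulfite treatment, and a difference is the ATO level minus the control level in percentage points. Over all analysed cytosines the mean level was 38.0% in control DNA and 36.7% in ATO DNA, a difference of -1.28 points (SD between cytosines 11.9). A cytosine was called where a two-sided Fisher's exact test gave an adjusted p under 0.05 and the difference was at least 25 points. This held for 2.65% of all analysed cytosines, 1.73% lower and 0.916% higher in ATO DNA. Since each group had 1 library, the tests set library against library and not condition against condition, and no value below has a replicate check. A level is an average over all cells of the tissue, so another mix of cell types and another level within a cell type cannot be told apart. The files hold no expression, so the labelled tissue was not checked against marker genes.

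Across the 7 gene windows the levels of the 2 libraries lay close together, and most called cytosines were in As3mt and in the window of Mt1 and Mt2. The mean level was 32.5% in control DNA and 30.8% in ATO DNA, a difference of -1.67 points (SD 10.6, 1231 cytosines). Of these cytosines 22, or 1.79%, were called, 14 lower and 8 higher in ATO DNA, a smaller share than the 2.65% over all analysed cytosines. As3mt held 11 of the called cytosines, the Mt1 and Mt2 window 7, Nfe2l2 3 and Nqo1 1, and Keap1, Hmox1 and Gclc none. With all counts divided by the dispersion between the strands of a CpG, 2.77, 1 of the 22 stayed called, the As3mt cytosine at 46784003. Over all data 0.080% of cytosines stayed called in this way, beside 1 of the 1231 in these windows. The median coverage at these cytosines was 43 reads in control DNA and 50 in ATO DNA, with a range of 10 to 372. Of the 1231 cytosines 1213 were on the reverse strand, so nearly every CpG was measured on 1 strand only.

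**Figure D1:**
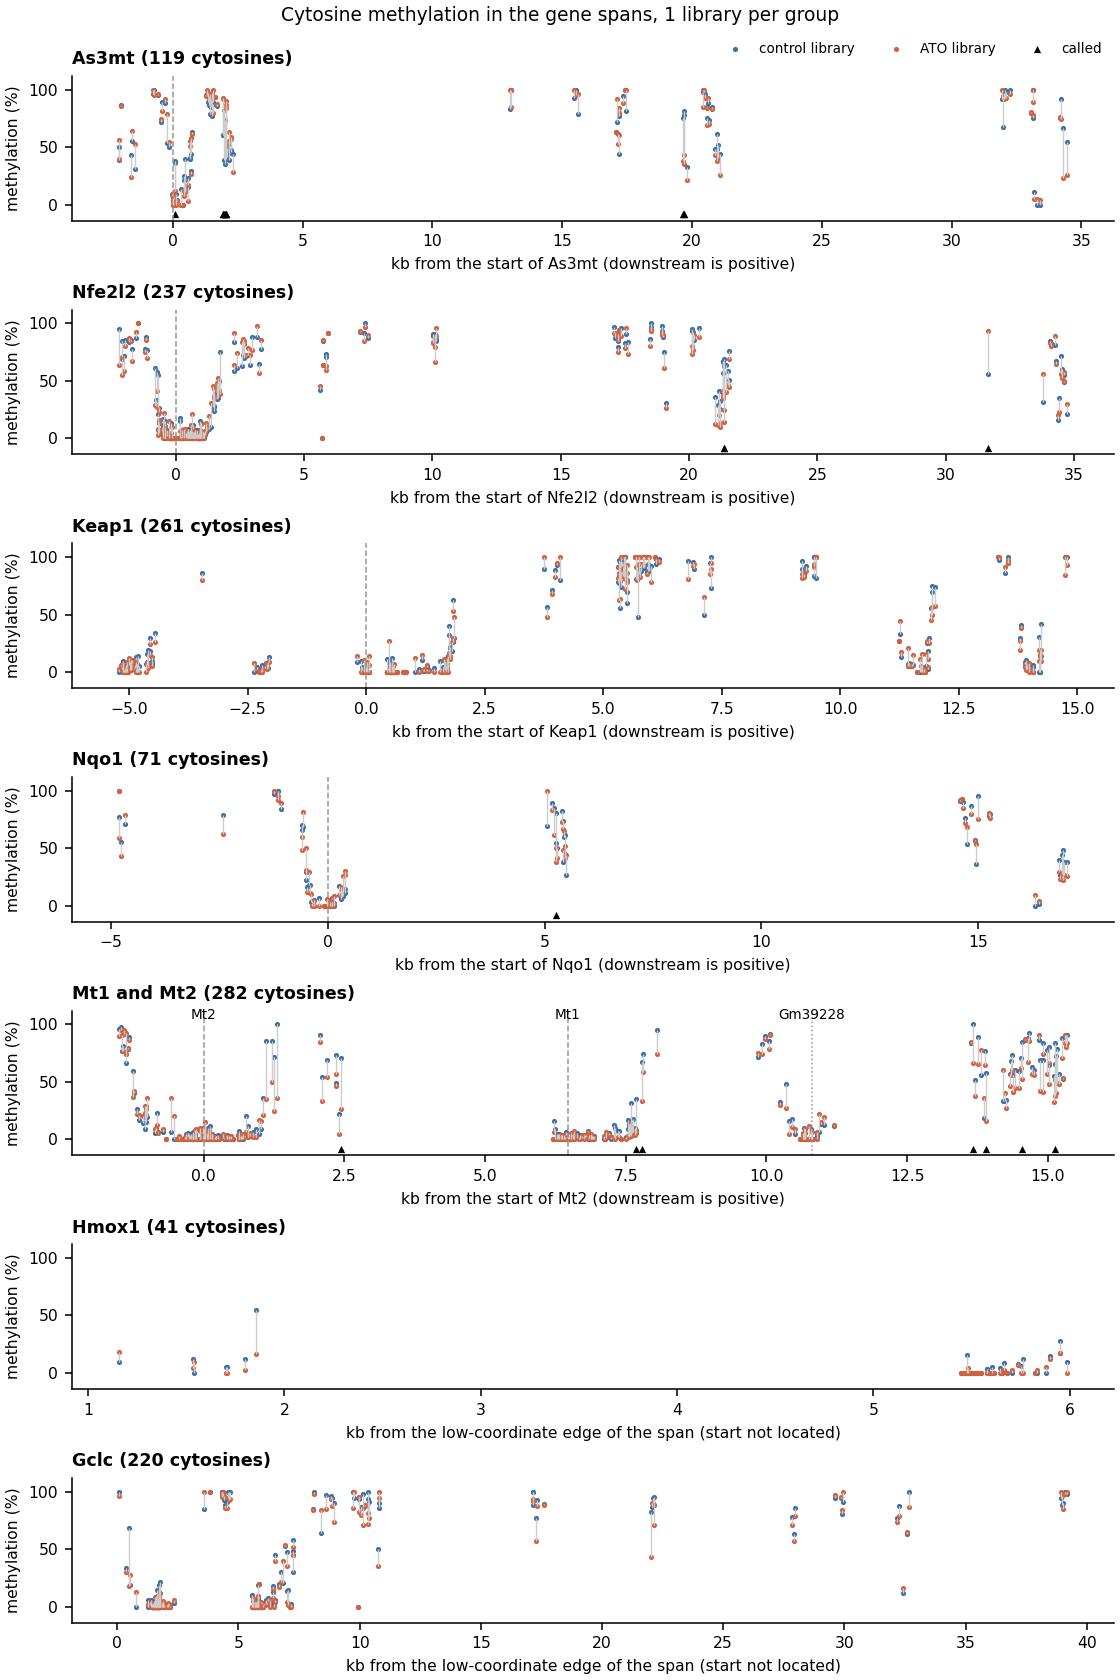
Methylation (%, vertical axis) of each analysed cytosine in the 7 gene windows, against kb from the start of the gene or, for Hmox1 and Gclc, from the low-coordinate edge of the window. Blue points are the control library, orange points the ATO library, and grey lines join the values of a cytosine. Triangles mark called cytosines and dashed lines the located starts (dotted for Gm39228). Levels are near 0 around most located starts, and As3mt also has partly methylated cytosines close to its start. The 7 called cytosines about 2 kb downstream of As3mt stand together.

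**Figure D2:**
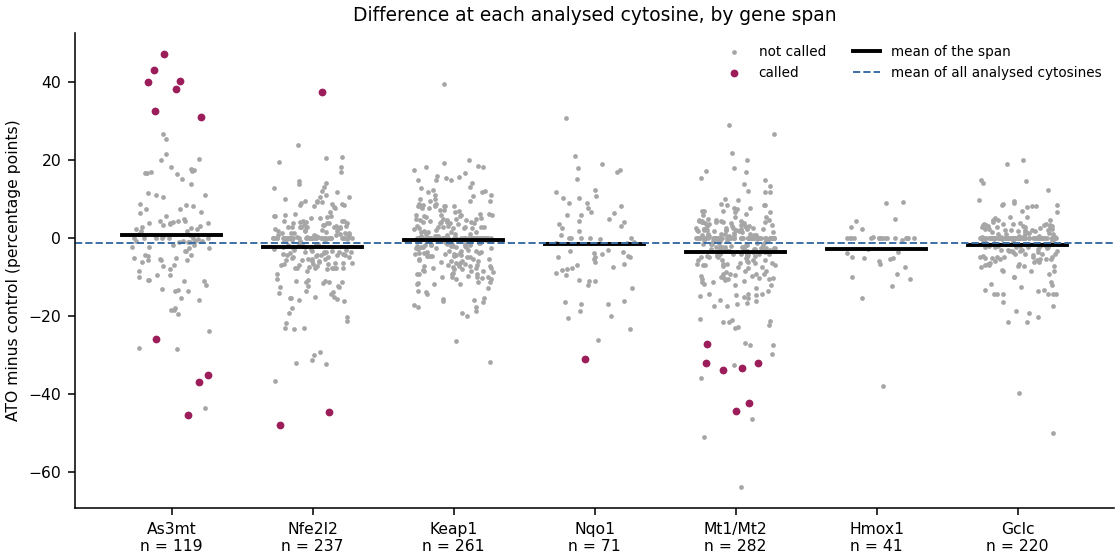
Difference (ATO minus control, percentage points, vertical axis) at each analysed cytosine by gene window, with points spread sideways at random, the mean of each window as a black bar and the mean of all analysed cytosines, -1.28 points, as a dashed line. As3mt has called cytosines (purple) on both sides of 0, and those of the Mt1 and Mt2 window all lie below 0.

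The window of As3mt, chr19:46777000-46820000 on mm9, had the highest mean level of the genes and the widest spread of differences. The mean over 119 cytosines was 59.9% in control DNA and 60.8% in ATO DNA, a difference of 0.88 points (SD 16.1). Of these cytosines 11 (9.24%) were called, 7 higher and 4 lower, beside 2.65% called over all data. The start was located at base 46781948 on mm9, from the spacing of its CpGs. In RefSeq order As3mt stands between Borcs7 and Cnnm2, and where the gene ends was not read across builds, so cytosines far from a start may lie in flanks.

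Around the start of As3mt a partly methylated edge gave way to a low stretch. In the promoter window the mean over 9 cytosines was 15.6% in control DNA and 18.5% in ATO DNA. The cytosines 237 and 133 bases upstream, in the first 2 CpGs of the sequence shown above, carried most of that methylation. The cytosine at -237 was at 53.3% of 60 reads in control DNA and 78.8% of 52 reads in ATO DNA, and was not called (Fisher's exact test, adjusted p = 0.10). That at -133 was at 50% and 54.4%. The other 7, from 44 bases upstream to 27 downstream, averaged 5.24% and 4.71%, and none was above 9.18% in either library. Just inside the gene the order of the libraries was the opposite. The cytosine 71 bases downstream was at 38.2% of 55 reads in control DNA and 12.3% of 65 reads in ATO DNA, and was called lower (Fisher's exact test, adjusted p = 0.0365), while its neighbour at 62 bases, at 36.0% and 12.3%, was not called.

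About 2 kb downstream of the As3mt start, 7 cytosines in a row, spanning 144 bases, were called higher in ATO DNA. They lie at chr19:46783863-46784006, 1915 to 2058 bases from the start, and no analysed cytosine between them was left uncalled. Their mean was 47.0% in control DNA and 86.0% in ATO DNA, with differences from 31.1 to 47.2 points and 90 to 144 reads behind each value. Control values lay between 35.4 and 61.0% and ATO values between 73.7 and 92.8%, ranges that describe cytosines picked for being called higher. The cytosine at 46783977 differed most, at 39.4% in control DNA (41 of 104 reads, exact 95% interval 29.98 to 49.5) and 86.7% in ATO DNA (78 of 90 reads, 77.9 to 92.9). Its adjusted p was 8.8e-09 by Fisher's exact test. That at 46783918 was at 39.1% and 82.2% (exact test, adjusted p = 2.0e-07). Cytosines this close are read on shared fragments and are not independent measurements.

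The cytosines on either side were mostly higher in ATO DNA too, and none was called. The 13 analysed cytosines before it, 1273 to 1704 bases from the start, averaged 87.8% in control DNA and 93.7% in ATO DNA, with 11 higher. At these control levels few could gain 25 points, and those at 46783362 (78.8% and 96.0%, Fisher's exact test, adjusted p = 0.0097) and 46783440 (76.9% and 97.3%, adjusted p = 0.0158) met the p threshold but not the size. The 7 after it, 2092 to 2327 bases from the start, averaged 45.3% and 52.7%, with 6 higher and none called. Where the stretch begins and ends was set by the calls themselves. In bins of 500 bases, tested on sums divided so that calls of a fragment count about once, 1 of 78 bins in the 7 windows was called, against 1.80% of the 152175 bins over all data. It was the bin at chr19:46783501-46784000, with 8 cytosines at 55.6% in control DNA and 86.1% in ATO DNA (Fisher's exact test, adjusted p = 2.0e-05). The next bin downstream, with 9 cytosines at 45.7% and 61.6%, was not called (exact test, adjusted p = 0.366).

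A second group in As3mt, 19667 to 19689 bases downstream of the start, had the opposite order. Its 3 cytosines, at 46801615, 46801632 and 46801637, were each called lower, at 75.0, 78.0 and 81.1% in control DNA and 38.1, 42.9 and 35.8% in ATO DNA. The cytosine at 46801637 was methylated in 81.1% of 95 reads in control DNA (exact 95% interval 71.7 to 88.4) and 35.8% of 109 reads in ATO DNA (26.8 to 45.5), with an adjusted p of 3.3e-08. The next analysed cytosine, at 46801742, was at 32.4% and 21.7% and was not called. With 4 cytosines the group was too small for a bin. These stretches, and those named for the other genes, were picked out after their values were seen.

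**Figure D3:**
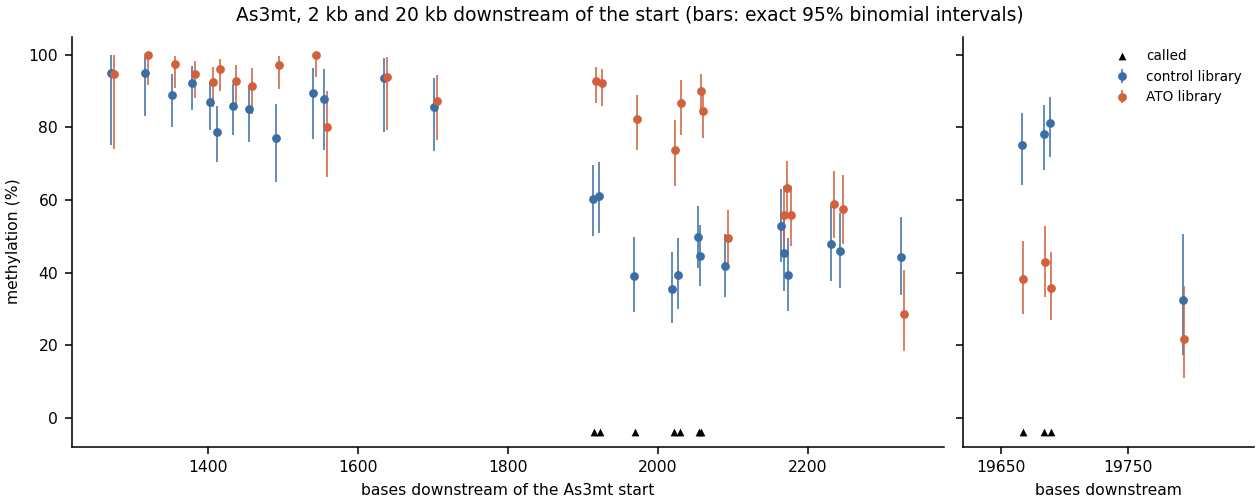
Methylation (%, vertical axis) against bases downstream of the As3mt start in the stretches about 2 kb (left) and 20 kb (right) downstream, with exact 95% binomial intervals that cover counting error only, and the libraries drawn slightly apart. The 7 called cytosines on the left lie between 73.7 and 92.8% in ATO DNA and 35.4 and 61.0% in control DNA, and on the right the 3 called cytosines have the opposite order.

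Nfe2l2, the gene of the transcription factor NRF2, had an unmethylated start in both libraries and differences of either sign downstream. Its window, chr2:75508000-75548000, held 237 cytosines with means of 34.1% in control DNA and 32.0% in ATO DNA, a difference of -2.10 points (SD 10.5). Of these 3 were called, 1.27%, beside 2.65% over all data. The start was located at base 75542720 on the minus strand. The promoter window, shown above with its antioxidant response element match, had 17 cytosines at 0.784% in control DNA and 0.854% in ATO DNA. Of these 15 were equal in both, and coverage there was low, 11 to 25 reads. The 98 cytosines from 142 to 1719 bases downstream averaged 6.97% and 7.30%.

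From 2256 to 3318 bases downstream of the Nfe2l2 start, 14 cytosines averaged 72.0% in control DNA and 79.0% in ATO DNA, with 12 higher, 2 lower and none called. The largest differences of the gene lay about 21 kb downstream and were mostly of the other sign. There 15 cytosines at chr2:75521143-75521710 averaged 51.7% in control DNA and 30.4% in ATO DNA, and 14 of the 15 were lower. At 75521349 the level was 62.5% of 24 reads in control DNA and 14.6% of 41 reads in ATO DNA, called by Fisher's exact test (adjusted p = 0.0060). At 75521339 it was 69.0% of 29 and 24.4% of 41 reads (exact test, adjusted p = 0.0116). Both called cytosines were covered below the median of the Nfe2l2 window, 47 reads in control DNA and 51 in ATO DNA. The other 13 were not called, and neither of the 500-base bins there was. The 24 cytosines 17 to 20 kb downstream averaged 87.6% and 83.1%, with 17 lower and none called. At the far end, 33783 to 34720 bases downstream, 12 cytosines averaged 54.7% and 55.2%, 6 of them higher and 6 lower. A single cytosine 31636 bases downstream, at 75511084, was called higher, at 56.2% and 93.8% of 32 reads in each library (exact test, adjusted p = 0.0319). Upstream of the gene, 3 cytosines more than 2 kb before the start averaged 82.9% and 63.2%, all lower and none called.

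Keap1, the inhibitor of NRF2, had close levels in the 2 libraries in every stretch described here, and no called cytosine. Its window, chr9:21029000-21049000, held 261 cytosines at 33.5% in control DNA and 33.1% in ATO DNA, a difference of -0.33 points (SD 8.47). Of these 14 (5.36%) had an unadjusted p under 0.05, against 12.8% over all data, a share that depends on level. By the mean of both libraries 141 were under 10%, where 2.13% had such a p, against 3.18% of all analysed cytosines there. Over 90% (47 cytosines) the shares were 8.51% and 6.95%, and at 20 to 80% (30 cytosines) 13.3% and 29.2%. With a coverage minimum of 5 the difference of the window was 0.39 points, of the opposite sign. The start was located at 21043776 on the minus strand. The promoter window averaged 2.71% and 3.63% over 12 cytosines, and the next 2 kb downstream 6.51% and 5.54% over 62. The 72 cytosines 4 to 10 kb downstream were highly methylated in both, at 88.3% and 89.2%. Those 11 to 15 kb downstream, 56 cytosines, averaged 26.8% and 26.3%. High and low stretches thus stood at the same places in both libraries. The cytosine of largest difference, at 21038053, was at 48.0% of 25 reads in control DNA and 87.5% of 24 reads in ATO DNA, and was not called (exact test, adjusted p = 0.10). In RefSeq order Keap1 stands between Pde4a and S1pr5, and the low stretch of 47 cytosines at -5206 to -4450 bases from its start averaged 6.35% and 5.20%.

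Among the targets of NRF2, Hmox1 had too few cytosines to cover its window and no located start, so no gene parts are given. Nqo1 had few cytosines. The Hmox1 window, chr8:77612000-77630000, held 41 analysed cytosines in 2 groups, 1.16 to 1.86 kb and 5.45 to 5.985 kb from its low-coordinate edge, so that most of its 18 kb was not measured. Their mean was 5.75% in control DNA and 3.02% in ATO DNA, a difference of -2.72 points (SD 7.59). Of them 2 (4.88%) had an unadjusted p under 0.05, against 12.8% over all data. None of the 41 was called, beside 2.65% over all data. Both shares depend on level, and 36 of the 41 had a mean of both libraries under 10%. Among these 36 no call was possible, and 2.78% had such a p, against 3.18% of all analysed cytosines under 10%. A dense stretch of 34 cytosines at chr8:77617446-77617985 was nearly unmethylated, at 4.03% and 2.11%. The other 7 averaged 14.1% and 7.43%, and include the cytosine of largest difference, at 77613857, which was at 54.5% of 11 reads and 16.7% of 12 reads and was not called (Fisher's exact test, adjusted p = 0.535).

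Nqo1 had 71 analysed cytosines in 25 kb, chr8:109907000-109932000, at 43.1% in control DNA and 41.8% in ATO DNA, a difference of -1.34 points (SD 11.8). With each read weighted alike the levels were 52.8% and 45.2%. Its start, at 109927105 on the minus strand, is the least certain, since its 5 CpGs fitted 14 places on the chromosome and 1 in the window. The promoter window averaged 1.15% and 1.62% over 6 cytosines. The 12 cytosines 65 to 394 bases downstream averaged 6.72% and 11.4%, none of them called. At the upstream edge, at -498 bases from the start, a cytosine was at 29.2% of 106 reads in control DNA and 50.5% of 111 in ATO DNA, an adjusted p of 0.0422 but a difference under 25 points. The called cytosine lay 5272 bases downstream at 109921833, with 81.0% of 121 reads in control DNA and 50% of 106 reads in ATO DNA (Fisher's exact test, adjusted p = 1.7e-04). The 13 cytosines around it averaged 62.8% and 58.8%, with 8 lower and 5 higher.

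Gclc, the glutathione synthesis gene, was nearly unmethylated over 2 dense stretches and highly methylated beyond them in both libraries. Its window, chr9:77597000-77647000, held 220 cytosines at 29.4% in control DNA and 27.7% in ATO DNA, a difference of -1.70 points (SD 7.65). With each read of the window weighted alike the order was the opposite, 32.5% and 33.0%. The dense stretches, 85 cytosines at chr9:77598266-77599330 and 56 at chr9:77602571-77603678, averaged 1.91% and 1.93%, and 4.23% and 3.14%. The 50 cytosines beyond 8 kb from the low-coordinate edge averaged 85.4% and 80.6%, with 32 lower and 17 higher. None of the 220 was called, and 14 (6.36%) had an unadjusted p under 0.05, against 12.8% over all data. By the mean of both libraries 140 of them were under 10%, where no call was possible. There 2.14% had such a p, against 3.18% of all analysed cytosines of that level. Over 90% (36 cytosines) the shares were 11.1% and 6.95%, and at 20 to 80% (22 cytosines) 18.2% and 29.2%. The cytosine of largest difference, at 77597487, was at 68.2% and 18.2% of 22 reads in each library and was just outside the threshold (Fisher's exact test, adjusted p = 0.0501). Which stretch holds the Gclc start was not determined here.

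The metallothionein window, chr8:96695000-96712000, had nearly unmethylated starts and, at the downstream edges of Mt1 and Mt2, lower levels in ATO DNA. Over 282 cytosines the mean was 22.3% in control DNA and 18.7% in ATO DNA, a difference of -3.54 points (SD 11.5), the most negative of the 7 windows. The 7 called cytosines, all lower, were 2.48% of the 282, near the 2.65% over all data, and 50 (17.7%) had an unadjusted p under 0.05, against 12.8% of all analysed cytosines. Starts were located at 96696518 for Mt2 and 96702989 for Mt1, both on the plus strand, and at another gene, Gm39228, a predicted noncoding RNA next to Mt1 in RefSeq order. Each cytosine was assigned to the nearest of the 3 starts. The 79 nearest Mt1 averaged 7.46% and 4.32%, the 128 nearest Mt2 16.2% and 14.4%, and the 75 nearest Gm39228 48.2% and 41.3%.

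The promoter windows of both metallothioneins, where the metal response element matches lie, were nearly unmethylated in both libraries. Mt1 averaged 2.32% in control DNA and 1.50% in ATO DNA over 24 cytosines, with 9 lower and 7 higher. Mt2 averaged 1.82% and 2.96% over 24, with 8 lower and 8 higher. The next stretches were as low, with 2.56% and 2.04% over the 38 cytosines to 943 bases downstream of the Mt1 start and 2.17% and 1.46% over the 34 to 532 bases downstream of the Mt2 start. No cytosine of these 4 stretches was called.

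Further downstream of Mt1, where methylation in control DNA climbs from near 0 to over 90%, every analysed cytosine was lower in ATO DNA. The 16 cytosines from 1033 to 1589 bases after the start averaged 27.3% in control DNA and 14.2% in ATO DNA, 16 of 16 lower by 1.96 to 33.8 points. Of these 2 were called, at 96704199, with 35.4% of 175 reads and 8.33% of 168 reads (Fisher's exact test, adjusted p = 4.1e-07), and at 96704307, with 67.1% of 73 and 33.3% of 63 reads (adjusted p = 0.0070). The bins of this window gave no call, the smallest adjusted p among its 17 bins being 0.249.

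Downstream of Mt2 the same order was seen at 2 places. The 7 cytosines 2060 to 2448 bases after the start averaged 61.4% in control DNA and 43.9% in ATO DNA, 7 of 7 lower, and that at 96698966 was called, with 71.1% of 45 reads and 26.8% of 71 reads (Fisher's exact test, adjusted p = 3.8e-04). At the edge of the low stretch, 604 to 1305 bases after the start, 23 cytosines averaged 20.2% and 10.2%, with 14 lower, 7 higher and none called. The 4 farthest of these held 10 to 14 reads in control DNA, so the widest difference of all the windows, 100% and 36.4% at 96697823, rested on 10 and 11 reads (exact test, adjusted p = 0.081). Upstream of Mt2 the 25 cytosines at -1498 to -667 bases from the start averaged 41.6% and 44.5%, with 16 higher and 8 lower. At the Gm39228 start the means went the other way, with 1.46% and 3.26% over the 16 cytosines of its promoter window. The 6 cytosines 98 to 403 bases downstream averaged 8.93% and 12.8%, 5 of them higher and none called. The 10 cytosines at -946 to -302 bases averaged 54.1% and 48.8%, with 8 lower, 2 higher and none called. Over these 32 cytosines around the Gm39228 start the mean difference was -0.02 points. The remaining 4 called cytosines of the window lay 2833 to 4535 bases downstream of the Gm39228 start, among 43 that averaged 69.6% and 57.6% with 34 lower. Of these 4, that at 96710427 differed most, with 57.9% of 19 reads and 15.8% of 38 reads (exact test, adjusted p = 0.0493).

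By gene part, the 6 members with a located start had low promoter windows in both libraries and more methylation downstream beyond 2 kb. Over their 92 promoter cytosines the mean was 3.18% in control DNA and 3.71% in ATO DNA, a difference of 0.53 points (SD 5.09), with 27 higher, 26 lower and 39 equal. The part from there to 2 kb downstream averaged 12.6% and 11.4% (318 cytosines, 6 or 1.89% called), and the part more than 2 kb downstream 65.5% and 63.7% (313 cytosines, 12 or 3.83% called), beside the 2.65% over all data. From 250 bases to 2 kb upstream the means were 35.9% and 36.0% (102 cytosines, none called). Beyond 2 kb upstream 59 of the 70 cytosines were Keap1's, at 7.38% and 6.25%, so no mean over genes is given there. The 3 of As3mt averaged 58.6% and 60.8%, and the 5 of Nqo1 76.6% and 68.7%, none called. The distant parts of Mt1 and Mt2 here leave out the cytosines nearest Gm39228.

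By level, the called cytosines sat in partly methylated DNA, as they did over all data. Grouped by the mean of both libraries, 267 of the 1231 cytosines lay between 20 and 80%, and 21 of the 22 called were among them (7.87%, against 9.25% of all analysed cytosines in that class). These 267 averaged 54.6% in control DNA and 48.8% in ATO DNA, a difference of -5.77 points, against -3.76 points for the class over all data. In the Mt1 and Mt2 window the 63 such cytosines averaged 59.6% and 46.3%, 49 of them lower. In As3mt the 51 such cytosines averaged 51.4% and 52.9%, with 27 higher and 24 lower. The order of the libraries in this class thus differed between these windows, a difference that was not tested. Below 10% the 650 cytosines of the 7 windows averaged 2.73% and 2.37%. No call was possible there, since a mean of both libraries under 10% keeps any difference below 25 points. The same holds for the class over 90%.

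The promoters of other genes of these pathways were low in both libraries. Of 49 listed genes, 34 had a located window with at least 3 analysed cytosines, and all 34 were under 10% in control DNA, as were 89.2% of the 11722 genes located in the same way. Their median level was 1.72% in control DNA and 2.38% in ATO DNA, and the median of their differences 0.69 points, against 2.06%, 2.08% and -0.02 points over all located promoters. None of the 34 differed by 10 points or more, where 2.72% of all promoters did, a share too small to set 34 genes apart. With all 34 under 10% in control DNA, none could fall by 10 points. None held a called cytosine, a count with no share over all promoters beside it. It is not read as a result, since a cytosine with a mean of both libraries under 10% cannot be called. With only windows that held no other listed position, 17 genes were measured and none differed by 10 points, where 2.97% of 5728 did. Such a difference was read without a test.

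Among 13 genes of the glutathione and thioredoxin systems 9 were measured, 8 higher in ATO DNA and 1 lower. Under the stricter location rule 7 were measured, 4 higher and 3 lower. Over all genes located in the first way 48.3% were higher and 50.8% lower, and over all under the stricter rule 49.1% and 49.7%. These counts, and those of the lists that follow, have no test. Prdx1, a peroxiredoxin that reduces peroxides, was at 4.85% in control DNA and 7.44% in ATO DNA. Gstm1, a glutathione transferase, was at 1.81% and 3.35%, and Gss, the second enzyme of glutathione synthesis, at 0.52% and 1.90%. All these values were within the low range of unmethylated promoters. Gpx4, a peroxidase that acts on lipid peroxides, was at 2.22% and 2.37% in the window with most analysed cytosines and at 9.16% and 4.18% in another window of the gene, which alone passed the stricter location rule. Txnrd1, a thioredoxin reductase, was at 1.22% and 2.57% in the first kind of window and at 1.51% and 0.93% in the second, a change of order.

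The 9 other antioxidant and redox genes were all measured, 5 higher and 4 lower. Me1, an NADPH-producing enzyme, had the largest difference of the listed genes, 0.78% in control DNA and 7.46% in ATO DNA, from 8 cytosines at median coverages of 14 and 16 reads. Blvrb, a biliverdin reductase, was at 0.76% and 2.65%, and G6pdx, the NADPH-producing entry to the pentose phosphate pathway, at 1.12% and 2.67%. Under the stricter rule none of the 9 was measured. Of the 6 regulators of NRF2 or its partners 4 were measured, 3 lower and 1 higher, and under the stricter rule 2, both lower. Mafg, a DNA-binding partner of NRF2, was at 2.96% and 1.22%, and its relative Mafk at 1.62% and 2.97%. Bach1, a repressor at the same elements, was at 2.06% and 0.61%.

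Of the 16 genes of arsenic and methyl donor handling 9 were measured, 7 higher and 2 lower, and under the stricter rule 5, of which 4 were higher. Ahcy, which clears the S-adenosylhomocysteine left by methyl transfer, was at 0.22% in control DNA and 3.36% in ATO DNA. Slc2a1, a glucose transporter, was at 3.00% and 5.54%, and Pnp, a purine nucleoside phosphorylase, at 7.12% and 9.36%. These differences rest on 12 or 13 cytosines each. Of the 5 metal handling genes 3 were measured, all higher, and their windows were the same under both rules. Slc30a1, a zinc exporter, was at 2.08% and 6.67% over 6 cytosines, at median coverages of 16 and 10 reads. Mt3, the brain metallothionein, was at 0.00% and 3.07% over 6, at median coverages of 11.5 and 21 reads. Mtf1, the factor that binds metal response elements, was at 1.29% and 2.40% over 26.

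**Figure D4:**
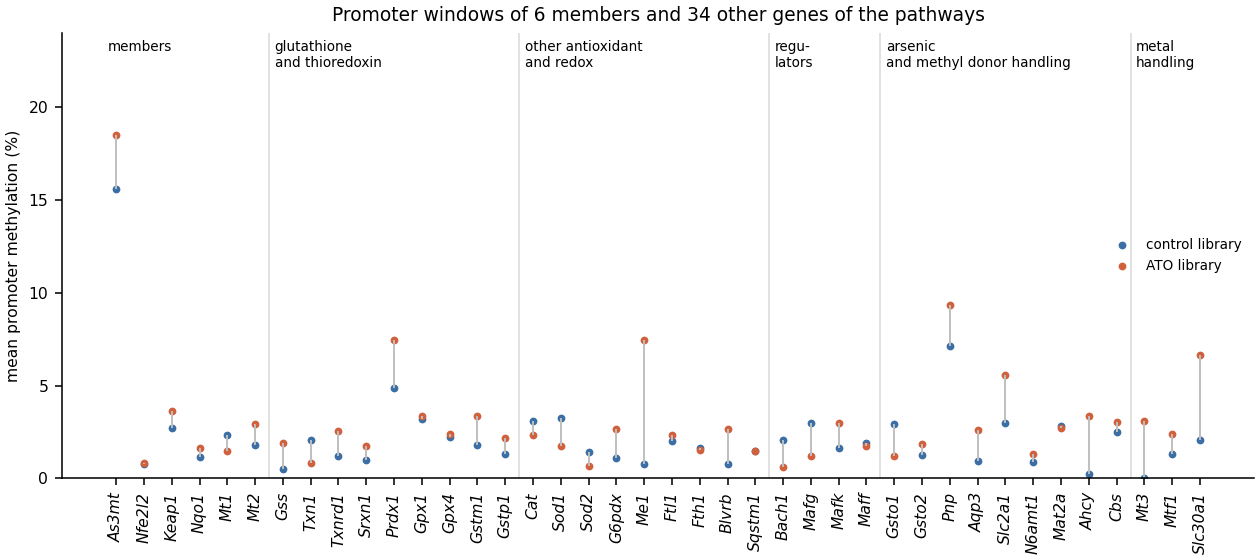
Mean methylation of the promoter window (%, vertical axis) in the control library (blue) and the ATO library (orange) for 6 members and 34 other genes of the pathways, grouped by list, with grey lines joining the values of a gene. As3mt, at 15.6% in control DNA and 18.5% in ATO DNA, is the only gene shown above 10%, and no gene shown differs by 10 points.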

How the data were processed

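Hippocampal DNA was captured with a mouse Methyl-Seq kit, bisulfite-treated and sequenced, per the labels' protocols. Bismark 0.19.0, Bowtie2, bcl2fastq and the build mm9 are named in the submitters' processing notes. How duplicate reads were handled is not given in the sources used here. Per the file headers, the deposited tables give for each cytosine and strand the count of reads and, as a percent of it, reads with C and with T. Methylated counts were recovered from coverage and percent, and 100% came out whole. Reads carry no molecular identifiers in these tables, so exact (Clopper-Pearson) 95% intervals and tests cover counting error only.

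Cytosines with at least 10 reads in both libraries were tested singly (Fisher's exact test, two-sided), with p-values adjusted by Benjamini-Hochberg over all 2312276. For bins of 500 bases with at least 5 cytosines, sums were divided by the largest number of cytosines in any 300 bases, and calls needed an adjusted p under 0.05 and 20 points. Median coverage was 41 and 44 reads. The tests were also run on calls simulated with binomial counting error from the coverage and pooled levels of these data. That simulation holds no spread beyond counting, so it does not check the tests under the dispersion between strands. No mm9 annotation was used. Starts were located where every CpG of a 300-base RefSeq promoter window, at least 5, was listed in the tables at 1 place on the chromosome, or for Nqo1 in its window. The planned rule also asked that no other listed position fall inside, which Keap1 alone met, so it was relaxed after the tables were seen. In 9882 located windows, 6.50% of listed and 1.98% of analysed cytosines were not at a CpG of the RefSeq sequence. Of neighbouring located windows 97.5% kept the RefSeq order.

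Members and gene lists were chosen with earlier results of these data known. Named were all 8 members, up to 3 called cytosines of largest difference per window (where none was called, the cytosine of largest difference), and up to 3 genes per list by promoter difference, using the window with most analysed cytosines. Other cytosines, stretches and Gpx4 were named after their values were seen. Python 3.11.15, numpy 2.4.6, scipy 1.17.1, pandas 2.3.3, numba 0.67.0 and matplotlib 3.10.9 were used.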

Additional observations from a re-analysis of the deposited data

How the results depend on the processing

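Every difference compares 2 libraries, and p-values hold for them alone. No paired analysis was possible because each group had 1 library. Dividing all counts by the dispersion between the strands of a CpG (2.77) left 1 of the 22 called cytosines, that at 46784003 in As3mt. It was at 49.6% and 90% (Fisher's exact test, adjusted p = 0.0343), and 0.080% of all cytosines stayed called. The divisor is the mean of the 2 libraries, each taken over the CpGs at 20 to 80% among the 61956 analysed on both strands. Under the other alternatives the count stayed within 1.5 times of 22, and the called As3mt bin and the absence of listed promoters past 10 points held under each one run. Weighting each call alike moved As3mt from 0.88 to 2.90 points, Nqo1 from -1.34 to -7.61 and Gclc from -1.70 to 0.45, a change of sign. Subtracting the mean of the level class gave 2.91 for As3mt, -0.79 for Nfe2l2 (from -2.10), 0.79 for Nqo1, a change of sign, and -2.54 for the Mt1 and Mt2 window (from -3.54). Keap1, at -0.33, gave -1.37 at a coverage minimum of 30 and turned sign, at 0.39 with a minimum of 5 and 0.43 minus the class mean, and Gclc gave -0.62 at 5. Cytosines between 20 and 80% alone, an alternative added after seeing the data, gave -6.08 for Nfe2l2, -2.69 for Keap1, -24.1 for Hmox1 (2 cytosines), -6.68 for Gclc and -13.3 for Mt1 and Mt2. For Keap1, the only gene under the planned location rule, the part to 2 kb downstream moved from -0.97 to -3.18 and -3.99 at minimums of 20 and 30, the part beyond from 0.24 to -0.69 at 20 and -1.41 at 30, and the promoter window from 0.91 to -0.22 at 30; over 6 members, added after seeing the data, the part beyond 2 kb downstream was at -1.80. The causes were not tested. Of 83 values of named cytosines under alternatives, 67 kept their side of the threshold, 14 lost their call and 2 gained a call. The 2 gains were Gclc 77597487 at a minimum of 20 and on the reverse strand alone. These alternatives left the difference of each named cytosine as it was, so no sign could change.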
